A study of Mus musculus with 12 samples.

Results

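Cycling blood endothelial cells are the vessel-lining cells that were in the division cycle when the lymph nodes were taken. They were chosen on 2 proliferation transcripts, Top2a and Mki67. Of 50017 cells kept in the 6 CD31 libraries, 28289 were endothelial (at least 2 UMIs of Pecam1 and Cdh5 together and none of Ptprc, Cd79a or Cd3e), 23715 of these had no UMI of the lymphatic gene Prox1, and 1203 of those had at least 2 UMIs of Top2a and Mki67 together. A UMI (unique molecular identifier) is a barcode that marks 1 captured RNA molecule. On GRCm38, Top2a lies at chr11:98992943-99024189 (minus strand), Mki67 at chr7:135689784-135716361 (minus strand) and Stmn1, a further marker of dividing cells that the rule left out, at chr4:134468320-134473843 (plus strand). The 21671 blood endothelial cells with no Top2a or Mki67 UMI served as the reference.

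The study asked about autophagy in the endothelium of inflamed mouse lymph nodes. All mice were C57BL/6, 7 to 10 weeks old, carried a floxed autophagy gene (ATG12 fl/fl) and received tamoxifen 5 times. The CDH5 CreER positive mice also carried a tamoxifen-inducible Cre driven by the promoter of Cdh5, a gene of all endothelium, blood and lymphatic alike. The number of mice pooled in a library was not given in the sources used here. Skin of the abdomen was painted with 50 ul of 4% oxazolone, a contact sensitizer, and nodes were taken on day 3 or day 7, while vehicle mice received acetone and olive oil alone. Each of the 6 combinations of vehicle, day 3 or day 7 with a Cre-negative or Cre-positive label was 1 library of the CD45-depleted, sorted fraction, so no combination had a replicate. Day 3 and day 7 share the vehicle libraries. P-values measure the spread between libraries, which can be technical, except in the fit of cycling against reference cells, as said there. In the fits of treatment and label this spread includes any label effect that differed between treatments.

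Endothelial cells line every vessel and are mostly out of cycle in an adult. A lymph node that swells in an immune response enlarges its vascular bed, and proliferation of its own endothelium is the known source of much of that growth. Its blood vessels comprise capillaries, arterioles, venules and high endothelial venules (HEVs), whose tall cells carry the sugar-coated ligands that recruit lymphocytes from blood. In the cycle itself, S phase copies the DNA, G2 prepares division and M phase separates the chromosomes, and each phase has its own wave of transcripts.

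The libraries held 6316 to 11636 kept cells with a median of 3367 to 5232 UMIs. Cycling cells were deeper than reference cells, with a median of 8155 to 10409 against 3273 to 4610 UMIs, 2.17 to 3.12 times as many. The summed counts of the cycling cells ran from 550432 UMIs in 52 cells to 5481163 UMIs in 584 cells, so the day 3 values are the best sampled. The mitochondrial share was alike (medians of 1.51 to 2.11% and 1.49 to 2.11%). No barcode of a cycling cell occurred among the cycling cells of another library, while 9 to 25 barcodes of kept cells were shared by each pair of libraries. A UMI of a Y-linked gene was found in 19.6 to 76.9% of cycling cells and 19.0 to 65.6% of reference cells, with both vehicle libraries highest, and its part in the differences was not tested.

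Atg12 encodes the ubiquitin-like protein that is joined to Atg5 and is the targeted gene. In cycling cells it stood at 59.6 and 61.8 CPM in vehicle, 40.9 and 48.5 at day 3, and 48.4 and 43.8 at day 7, Cre-negative first, where CPM are counts per 1000000 UMIs of the summed cells. The ranges of Cre-negative and Cre-positive libraries overlapped, and the edgeR change by label was 0.09 on the log2 scale. A count of 3′ ends does not by itself check the deletion. In the reference cells Atg12 stood at 51.3 and 74.0 CPM in vehicle, 47.9 and 61.9 at day 3, and 52.6 and 67.1 at day 7, higher with the Cre-positive label in 3 of 3 pairs. Atg7, the enzyme that activates Atg12, stood at 15.0 to 24.3 CPM in cycling cells with no separation by label.

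In the vehicle libraries 97 of 4062 blood endothelial cells were cycling with the Cre-negative label (2.39%, exact Clopper-Pearson 95% interval 1.94 to 2.91%) and 52 of 3832 with the Cre-positive label (1.36%, 1.02 to 1.78%). At day 3 the shares were 324 of 3674 (8.82%, 7.92 to 9.78%) and 584 of 5344 (10.9%, 10.1 to 11.8%). At day 7 they were 54 of 3949 (1.37%, 1.03 to 1.78%) and 92 of 2854 (3.22%, 2.61 to 3.94%). Both day 3 libraries thus stood above all 4 others, and the intervals, which cover counting error only, did not touch. At day 7 the Cre-negative share lay within the vehicle range and the Cre-positive share above it.

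The mean share was 6.08% over the 4 oxazolone and 1.87% over the 2 vehicle libraries, a difference of 4.21 percentage points (exact two-sided permutation test over the 6 libraries, p = 0.2, where the smallest possible p is 0.0667). The Cre-positive share exceeded the Cre-negative one by 2.11 points at day 3 and 1.86 points at day 7, and was lower by 1.03 points in vehicle (written as -1.03). The mean difference by label was 0.978 points, from 5.17% against 4.19% (exact paired sign-flip test, p = 0.5, smallest possible 0.25). Neither contrast passed the test, and with 1 library a combination neither could.

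**Figure D1:**
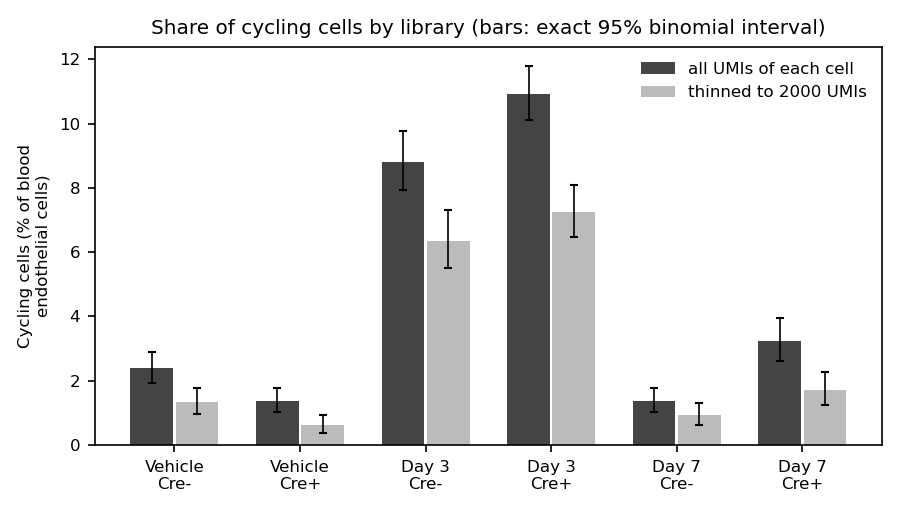
Share of cycling cells among blood endothelial cells (percent, y axis) in each library (x axis), from all UMIs (dark bars) and after cells of at least 2000 UMIs were thinned to 2000 (light bars), with exact 95% binomial intervals. The day 3 bars, at 8.82 and 10.9%, stand above the other 4, which lie between 1.36 and 3.22%.

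Thinning to 2000 UMIs, which left out shallower cells, lowered the shares, and both day 3 libraries again stood above the rest. It kept 3446 and 3411 of the blood endothelial cells in vehicle, 2928 and 4058 at day 3, and 3480 and 2586 at day 7, so the denominator changed too. The shares became 1.33 and 0.616% in vehicle, 6.35 and 7.24% at day 3, and 0.920 and 1.70% at day 7. Lymphatic endothelial cells of the same libraries, those with a Prox1 UMI, passed the same cycle threshold at 4.18 and 2.10% in vehicle, 8.80 and 9.11% at day 3, and 2.32 and 3.51% at day 7. Resting B cells, which carry Cd79a and Ighd and should be out of cycle, passed it at 0.327 to 3.13%, and after thinning at 0.245 to 1.95%, at median depths of 2817 to 3353 UMIs. In the vehicle Cre-negative library the B cell share exceeded that of blood endothelium, and in the other vehicle and both day 7 libraries the intervals of both cell types overlapped, so no order is read among those 4 libraries. The day 3 shares exceeded it in their own libraries, which had 0.576 and 0.913% after thinning. Free Top2a and Mki67 RNA in barcodes of fewer than 100 UMIs was also highest at day 3. It stood at 105 and 33.5 CPM in vehicle, 176 and 286 at day 3, and 29.1 and 75.6 at day 7. Its part in the shares was not tested.

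The threshold fell in a gradual distribution. Across libraries 841 blood endothelial cells had exactly 1 UMI of Top2a and Mki67 and were neither cycling nor reference, 270 had 2, 123 had 3 and 810 had 4 or more. The most a single cell held was 86. Both transcripts were seen in 880 cells, Top2a alone in 172 and Mki67 alone in 151. Just outside the threshold, the cells with 1 UMI had S phase transcripts at 874 to 1395 CPM and G2/M transcripts at 966 to 2006 CPM, between the reference and the cycling cells.

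The label was checked on the other cycle genes. For each library, the summed S and G2/M UMIs per 10000 of every cycling cell were compared with the 99th percentile of that library's reference cells, which was 40.7 to 61.4 in 5 libraries and 93.0 in the day 3 Cre-positive one. Above it lay 73 of 97 and 39 of 52 cycling cells in vehicle, 282 of 324 and 397 of 584 at day 3, and 40 of 54 and 72 of 92 at day 7. Among cells with exactly 2 Top2a and Mki67 UMIs 23.1 to 51.0% lay above it, and among those with 4 or more 85.9 to 100%. The lowest share, 68.0%, was that of the day 3 Cre-positive library, where 142 of 584 cells had exactly 2 UMIs. Counted this way, a measure added after the data were seen, the shares of blood endothelium were 1.80 and 1.02% in vehicle, 7.68 and 7.43% at day 3, and 1.01 and 2.52% at day 7. The day 3 libraries again stood above the rest, and their order by label was the opposite one.

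Markers of other cell types were measured beside these counts, and their part in the results was not tested. Scrublet, a doublet caller, placed among the likeliest doublets 1.03 and 5.77% of the cycling cells in vehicle, 5.86 and 9.59% at day 3, and 29.6 and 6.52% at day 7, against 1.68 to 6.09% of the reference cells. The summed T cell markers stood at 4.69 to 32.5 CPM in cycling and 8.82 to 33.3 CPM in reference cells, and none of the 9 reached a mean of 20 CPM in either. The summed myeloid markers stood at 3.63 to 93.5 CPM in cycling and 26.1 to 58.3 CPM in reference cells, and Itgam of the 10 markers was at 0 in every cycling cell. The summed pericyte markers stood at 6.25 to 254 CPM in cycling and 40.4 to 146 CPM in reference cells, the highest in the vehicle Cre-positive library, where Acta2 (smooth muscle actin) was at 113 CPM. The B cell sum, at 796 to 1301 against 1155 to 1582 CPM, and the fibroblast sum, at 554 to 674 against 556 to 682 CPM, came mostly from Ebf1 and Cd74 and from Cd34, which endothelium also expresses. In the day 3 Cre-positive library Cd34 made up 585 of 674 CPM of the fibroblast sum, and Col3a1, a fibroblast collagen, stood at 12.6 CPM against 0.432 CPM in its reference and 0 CPM in the cycling cells of the other libraries. The lymphatic sum, at 596 to 3537 against 756 to 2656 CPM, came mostly from Ccl21a. A UMI of the lymphatic gene Lyve1 was found in 3.09 and 0% of cycling cells in vehicle, 12.7 and 4.79% at day 3, and 13.0 and 5.43% at day 7, against 1.37 to 3.21% of the shallower reference cells. With Lyve1, Mmrn1 and Reln at 0, the cycling cells numbered 92 and 51 in vehicle, 279 and 550 at day 3, and 47 and 83 at day 7. They then made up 2.38 and 1.37%, 8.03 and 10.7%, and 1.25 and 3.05% of blood endothelium. Fewer than 5 UMIs of 15 endothelial genes outside the rule were found in 22 of the 1203 cells, 18 of them in the day 3 Cre-positive library.

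The cycling cells carried transcripts of S phase and of G2/M, and no G1 list was measured. The 44 S phase genes summed to 3174 to 4149 CPM against 645 to 772 CPM in reference cells, and the 53 G2/M genes, a list without Top2a and Mki67, to 8128 to 9136 CPM against 900 to 1126 CPM. These and all other values set against the reference describe cells that were chosen for cycle genes, and no test was made. In all 6 libraries 364 of 7400 genes of at least 20 CPM were more than 2-fold higher in cycling cells (4.92%), 108 of them in the cycle lists, and 111 were more than 2-fold lower (1.5%). By any amount, 1798 genes were higher in all 6 libraries (24.3%) and 2054 were lower in all 6 (27.8%), and the list counts below are to be read beside these shares.

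Among genes of DNA replication 38 of 43 were more than 2-fold higher in every library. Pcna, the clamp that holds polymerase to the DNA, stood at 210.1 and 218 CPM in vehicle, 305 and 266 at day 3, and 239 and 255 at day 7, against 51.1 to 63.4 CPM in reference cells. Tyms, which makes thymidylate, stood at 161 to 252 against 24.3 to 45.3 CPM. Hells, a chromatin remodeller, stood at 116 to 187 against 14.0 to 21 CPM.

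Among genes of G2 and mitosis 48 of 50 were more than 2-fold higher in every library. Cenpf, a kinetochore protein, had 328 and 299.8 CPM in vehicle, 332 and 333 at day 3, and 390.4 and 316 at day 7, against 0.559 to 6.95 CPM. Birc5 (survivin), a subunit of the chromosomal passenger complex, ran at 234 to 364 against 0.168 to 9.93 CPM, and its highest reference values were those of the day 3 libraries. Hmgb2, a chromatin protein, stood at 1448 to 1771 against 119 to 199 CPM.

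Stmn1, which destabilises microtubules and is the marker of these cells that the rule left out, reached 1012 and 874 CPM in vehicle, 987 and 934 at day 3, and 990.2 and 941 at day 7. Reference cells had 29.2 to 76.6 CPM, a median log2 ratio of 4.23 over libraries. After thinning, a Stmn1 UMI was found in 59.6 to 70.9% of cycling cells, 5.26 to 10.6% of reference cells and 3.56 to 7.76% of resting B cells. Of 16 genes for chromatin, tubulin and nucleotide supply, 14 were more than 2-fold higher in every library. H2afz, a histone variant, stood at 1608 to 2013 against 233 to 448 CPM, and Tubb5, a β-tubulin, at 956 to 1201 against 218 to 291 CPM.

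The regulators that gate the cycle were less uniform, with 9 of 19 more than 2-fold higher and 2 more than 2-fold lower. Ccna2, the cyclin of S phase and G2, stood at 99.9 to 133 against 0.168 to 2.01 CPM. Ccnd1, the cyclin that carries mitogen signals into G1, stood at 605 to 1003 against 350 to 609 CPM, with overlapping ranges and a median log2 ratio of 0.73. E2f3, an activator of S phase genes, had a median log2 ratio of 1.26. Cdkn1a (p21), an inhibitor of the cycle, lay near the reference, with log2 ratios from -0.88 to 0.78. Rb1, which restrains E2F, was at or below it, with ratios from -0.89 to 0.00.

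Transcripts of G2 and mitosis were common. At least 3 UMIs of Ccnb1, Plk1, Cdc20, Aurka, Cenpe and Cenpa together were found in 52.6 and 44.2% of cycling cells in vehicle, 54.3 and 51.0% at day 3, and 53.7 and 48.9% at day 7. Reference cells reached 0.0373 to 0.641%. This cut was not adjusted for depth, and the reference cells were shallower. The ratio of summed G2/M to summed S CPM was 2.52 and 2.56 in vehicle, 2.20 and 2.30 at day 3, and 2.72 and 2.28 at day 7. The 6 ratios showed no separation by label, and the day 3 pair was not clear of the day 7 Cre-positive library. Single cells spread over S-rich and G2/M-rich positions. The median cell had 16.7 to 43.2 S phase and 58.6 to 91.7 G2/M UMIs per 10000, highest for S phase in the day 3 libraries (43.2 and 35.2). The cells were chosen on Top2a and Mki67, so the mix of phases is tied to the rule.

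**Figure D2:**
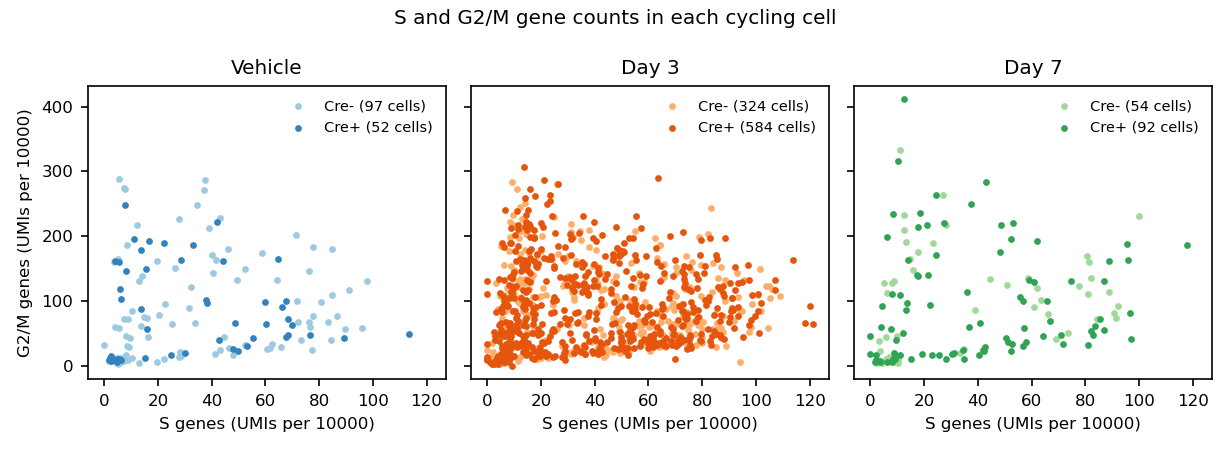
UMIs of the 44 S phase genes (x axis) and of the 53 G2/M genes (y axis) per 10000 UMIs in each of the 1203 cycling cells, by treatment, with Cre-negative cells in the lighter and Cre-positive cells in the darker shade. Cells occupy S-rich, G2/M-rich and mixed positions in every library, and a group with few UMIs of either list sits at the lower left.

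Cycle genes share short promoter sequences, and the promoters of the genes that stood furthest above the reference are shown for this reason. Each line gives the 150 bases that end just before the RefSeq transcription start (GRCm38.p6), 5′ to 3′ on the strand of the gene. Capitals mark CCAAT boxes (CCAAT, the site of NF-Y), the cell cycle genes homology region (CHR, TTTGAA, the site of the DREAM and MuvB complexes) and the E2F letters TTTCGCGC or TTTGGCGC, each on either strand, so that ATTGG is a CCAAT box and TTCAAA a CHR on the other strand. The first 3 are the G2/M genes and the last 3 the S phase genes with the largest smallest ratio over libraries.
Hmmr, chr11:40733438-40733587, minus strand: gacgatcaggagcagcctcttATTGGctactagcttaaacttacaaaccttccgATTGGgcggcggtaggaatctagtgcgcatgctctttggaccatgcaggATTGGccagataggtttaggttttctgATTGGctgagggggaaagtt
Nuf2, chr1:169531465-169531614, minus strand: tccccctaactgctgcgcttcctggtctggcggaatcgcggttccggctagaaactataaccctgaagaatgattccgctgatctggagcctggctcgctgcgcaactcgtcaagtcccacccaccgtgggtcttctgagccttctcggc
Ckap2l, chr2:129297213-129297362, minus strand: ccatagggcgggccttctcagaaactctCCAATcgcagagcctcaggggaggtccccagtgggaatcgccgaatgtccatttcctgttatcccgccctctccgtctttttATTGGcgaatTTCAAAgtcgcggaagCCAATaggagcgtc
E2f8, chr7:48881597-48881746, minus strand: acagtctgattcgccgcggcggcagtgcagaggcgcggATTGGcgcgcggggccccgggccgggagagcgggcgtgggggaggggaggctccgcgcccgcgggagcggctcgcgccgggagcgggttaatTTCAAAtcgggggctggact
Rrm2, chr12:24708104-24708253, plus strand: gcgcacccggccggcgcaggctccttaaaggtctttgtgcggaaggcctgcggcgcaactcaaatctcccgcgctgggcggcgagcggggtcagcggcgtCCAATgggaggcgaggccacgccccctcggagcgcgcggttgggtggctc
Rad51ap1, chr6:126939588-126939737, minus strand: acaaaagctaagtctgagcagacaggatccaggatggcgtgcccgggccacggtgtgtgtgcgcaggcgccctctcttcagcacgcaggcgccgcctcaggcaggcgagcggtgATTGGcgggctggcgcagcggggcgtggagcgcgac

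Hmmr (a spindle protein) held 4 CCAAT boxes in the window and no CHR. Ckap2l, another spindle protein, held 3 CCAAT boxes and a CHR. Nuf2, of the kinetochore, held none of these letters. E2f8, a repressor of the E2F family, held a CCAAT box and a CHR, whereas Rrm2, a subunit of ribonucleotide reductase, and Rad51ap1, a recombination factor, held a CCAAT box each. Over 250 bases upstream, a CHR occurred in 36.5% of 52 G2/M promoters, 16.7% of 36 S phase promoters and 15.99% of all 32851 promoters of the table. A CCAAT box occurred in 75%, 69.4% and 33.9%, and an E2F word in 3.85%, 16.7% and 0.655%. The CHR and a CCAAT box stood together in 30.8% of G2/M, 11.1% of S phase and 5.55% of all promoters. These letters describe the lists and are not evidence of binding in these cells.

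Outside the cycle lists, the 12 genes whose smallest ratio over libraries was largest included Neil3, a glycosylase that repairs DNA in proliferating cells. It was found at 120.2 and 105 CPM in vehicle, 112 and 93.8 at day 3, and 90.6 and 99.3 at day 7, against 0 to 1.29 CPM. Prc1, which bundles microtubules at cytokinesis, stood at 242 to 291 against 0.951 to 4.17 CPM. Esco2 (cohesin acetyltransferase), Knl1 (kinetochore), Kif15 (spindle kinesin), Melk and Pbk (mitotic kinases), Ccnf (cyclin F), Pimreg, Depdc1a, Sapcd2 and Iqgap3 made up the rest. All 12 had log2 ratios of at least 5.87 in every library.

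Of 13 ribosome biogenesis genes, all were higher in all 6 libraries, beside 24.3% of all 7400 genes, at a median log2 ratio of 0.84 beside -0.03. Limited to cells of 5000 to 20000 UMIs in both groups, 12 of 13 were higher (median 0.63), beside 1655 of all 7400 genes higher and 1305 lower in every library at that depth. Npm1, a nucleolar chaperone, stood at 716 to 922 against 358 to 515 CPM. Nop58, which guides methylation of ribosomal RNA, stood at 129.7 to 203 against 54.5 to 84.9 CPM. Of 14 genes of endoplasmic reticulum stress and protein folding, 7 were higher and 3 lower in every library, but 2 higher and 4 lower in that depth range. Of 14 glycolysis and hypoxia genes 7 were higher and 2 lower, and 6 and 3 in that range.

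Pan-endothelial genes were moderately lower. Of 15 genes outside the rule, 14 were lower in all 6 libraries, beside 27.8% of all genes, at a median log2 ratio of -0.51. At 5000 to 20000 UMIs 11 of 15 were lower (median -0.30), beside 1305 of all 7400 genes. Flt1, a decoy receptor for VEGF, stood at 783 and 925 CPM in vehicle, 938 and 971 at day 3, and 720 and 774 at day 7, against 1559 to 1976 CPM. Emcn, an endothelial sialomucin, had a median log2 ratio of -0.46. Of genes of angiogenic and BMP signalling, which comprise receptors, ligands and targets such as Id1, 13 of 15 were lower (median -0.76). Kdr, the main VEGF receptor, stood at 384 to 537 against 813 to 1035 CPM, and Nrp1, its co-receptor, at 398 to 558 against 829.8 to 1201 CPM.

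**Figure D3:**
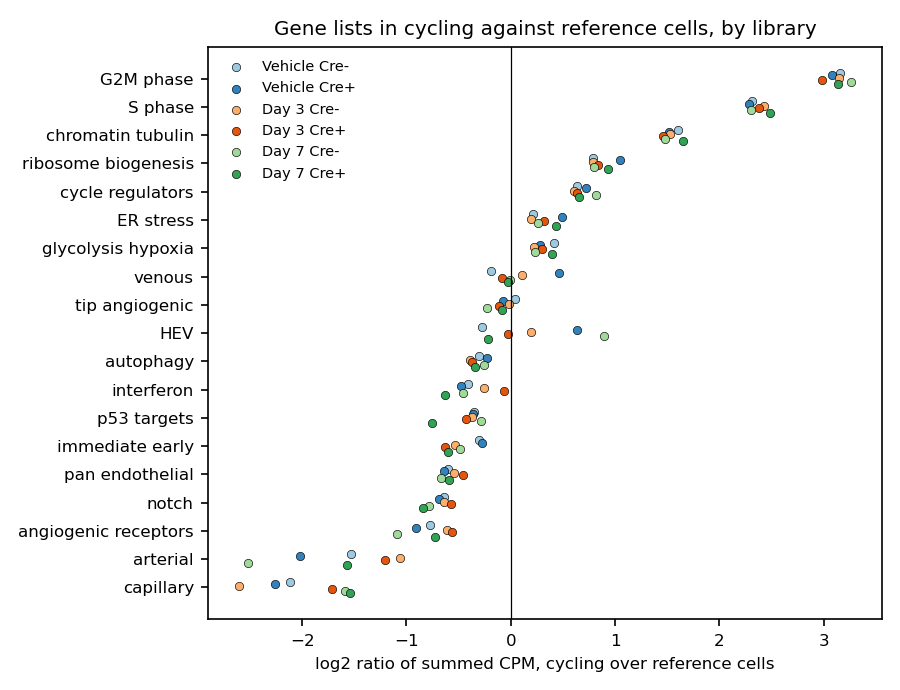
Log2 ratio of the summed CPM of each gene list in cycling over reference cells (x axis), for 19 lists (y axis), with 1 point for each library. The cycle lists lie at the right, the venous and tip lists near 0, the HEV list on both sides of 0 with its highest point in the day 7 Cre-negative library, and the arterial and capillary lists at the left in all 6 libraries.

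Capillary genes were lower in cycling cells in every library. All 12 were lower in all 6, beside 27.8% of all genes, and 7 of them more than 2-fold (median log2 ratio -1.52). Fabp4, a fatty acid carrier, stood at 2307 and 1263 CPM in vehicle, 1508 and 1537 at day 3, and 1349 and 3291 at day 7, against 4699 to 14231 CPM. Cd36, a fatty acid receptor, stood at 103 to 260.3 against 645 to 1826 CPM. Gpihbp1, which anchors lipoprotein lipase to capillaries, was at 391 and 209 CPM in vehicle, 209 and 187 at day 3, and 187 and 339.9 at day 7, against 487 to 943 CPM. The capillary mucin receptor Cd300lg stood at 217 to 362 against 412 to 697 CPM.

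Arterial genes behaved likewise, with 11 of 11 lower in every library, beside 27.8% of all genes, and 6 of them more than 2-fold (median log2 ratio -1.56). Cxcl12, a chemokine of arterial endothelium, stood at 849 and 387 CPM in vehicle, 1014 and 1149 at day 3, and 179.6 and 705 at day 7, against 1520.1 to 2605 CPM. Gja4 (connexin 37) stood at 18.7 to 102 against 71.4 to 223 CPM, lower within each library. Sox17, an arterial transcription factor, stood at 67.2 to 119 against 204 to 264 CPM. Notch genes, which specify arteries, were lower in 7 of 9 cases, Notch1 at 90.6 to 109 against 148 to 177 CPM.

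HEV, venous and tip genes had medians near that of all genes. For HEVs 4 of 11 genes were higher and 1 lower in every library (median 0.24), for veins 1 of 10 and 1 of 10 (median 0.03), and for tip cells, which lead sprouts, 1 of 15 higher and 3 lower (median -0.08). Of all genes 24.3% were higher and 27.8% lower in every library. At 5000 to 20000 UMIs 0 of 11 HEV genes were higher and 1 lower, and with at least 3 Top2a and Mki67 UMIs 0 were higher and 0 lower in every library. Of the 15 tip genes 3 were higher and 2 lower in the first setting, and 4 higher and 2 lower in the second. Of all 7400 genes 1655 were higher and 1305 lower in the first setting, and 1816 higher and 1866 lower in the second. Fut7, which builds the L-selectin ligand, was found at 72.9 and 207 CPM in vehicle, 75.1 and 48.9 at day 3, and 229.6 and 115 at day 7, above its own reference in each library (38.8 to 131 CPM). Enpp2 (autotaxin) stood at 640.2 to 1604 against 675 to 1675 CPM. Selp (P-selectin) had 45.4 and 369 CPM in vehicle, 324 and 214 at day 3, and 122 and 43.8 at day 7, against 50.2 to 265 CPM, with no common direction. Plvap, of the diaphragms of fenestrated vessels, stood at 1186 to 1511 against 1332 to 1856 CPM, and Col4a1, a basement membrane collagen, at 1148 to 1671 against 1199 to 1569.9 CPM.

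The HEV sum was highest in the day 7 Cre-negative library, at 50227 CPM in cycling and 27116 CPM in reference cells, and 3818 to 9784 against 4106 to 8529 CPM elsewhere. Glycam1, the secreted mucin of HEVs, made up 44279 CPM of the former. The same library had 29.6% of its 54 cycling cells among the likeliest doublets, and Glycam1 RNA was found in 31.3% of its resting B cells after thinning. The part of either in the HEV sum was not tested.

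**Figure D4:**
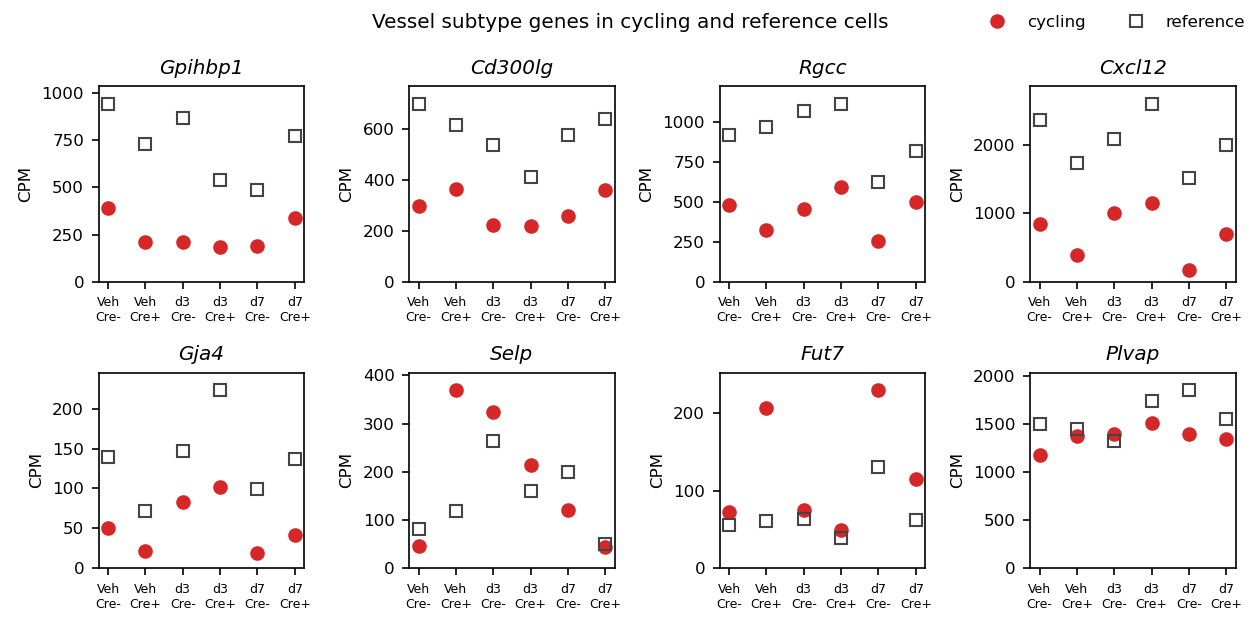
CPM (y axes) of 8 vessel subtype genes in cycling cells (filled circles) and reference cells (open squares) of each library (x axes). The capillary genes Gpihbp1, Cd300lg and Rgcc and the arterial genes Cxcl12 and Gja4 are lower in cycling cells in all 6 libraries, while Selp and Plvap have no common direction.

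Several of these differences were smaller in a narrower depth range. When both groups were limited to cells of 5000 to 20000 UMIs, all 12 capillary genes were still lower in every library, but 2 instead of 7 by more than 2-fold, and their median log2 ratio became -0.94. Of all 7400 genes 1305 instead of 2054 were lower in every library in this range. The arterial median became -1.43, with 10 of 11 genes lower, and the HEV and venous medians became -0.13 and -0.39. Genes more than 2-fold lower in all libraries dropped from 111 of 7400 to 27 of 7313 genes of at least 20 CPM, and those more than 2-fold higher went from 364 to 380, of which 352 were the same genes. On the same 7400 genes the counts in this range were 32 lower and 373 higher. As a share of thinned cells, a Gpihbp1 UMI was found in 21.2 to 37.4% of cycling cells, 44.5 to 59.5% of reference cells and 0 to 0.900% of resting B cells. Other genes had the opposite order on this scale. A UMI of Plvap was found in 80.2 to 89.4% of cycling and 59.5 to 82.5% of reference cells, of Enpp2 in 56.2 to 90.4% and 37.3 to 66.9%, and of Fut7 in 4.75 to 23.1% and 3.66 to 9.95%. Plvap, Enpp2, Fut7, Selp, Glycam1 and Apln, a gene of tip cells, were each found in a larger share of cycling cells in all 6 libraries. For Apln it was 3.23 to 7.69% of cycling and 1.41 to 2.36% of reference cells. For Plvap, Enpp2, Selp and Glycam1 the CPM gave no common direction, so no order is read from the shares.

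Of the 12 genes that stood furthest below the reference, 3 belong to blood. Lpl (lipoprotein lipase) stood at 1.56 to 11.7 against 37.1 to 153 CPM. Aqp7, a glycerol channel, stood at 2.55 to 11.4 against 46.8 to 149.7 CPM, and Timp4, a protease inhibitor, at 5.68 to 23.4 against 73.6 to 208 CPM. At 5000 to 20000 UMIs the median log2 ratio went from -3.62 to -2.41 for Lpl, from -3.81 to -2.33 for Aqp7 and from -3.43 to -1.81 for Timp4. Bmp6, Cyp4b1, Fbln5, Col8a1 and Slc26a10 also moved toward the reference, to -2.03, -1.73, -1.95, -2.445 and -2.34. Mgp did not, going from -4.37 to -4.425. Fbln5 (elastic fibres), Mgp and Col8a1 (matrix), Bmp6, Cyp4b1 and Slc26a10 were the others outside blood. The haemoglobin genes Hbb-bs, Hba-a1 and Hba-a2, transcripts of red cells, were at or near 0 in cycling cells, Hbb-bs at 0 to 0.974 CPM against 73.1 to 380.3 CPM in reference cells. Hbb-bs was at 219 CPM in the free RNA of the vehicle Cre-negative library.

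Whether the cycling cells themselves changed with treatment was asked of their summed counts, in an edgeR quasi-likelihood fit with treatment and label over 9402 genes. After Benjamini-Hochberg adjustment 0 genes passed 0.05 at day 3 (0.0%), 0 at day 7 (0.0%) and 0 by label (0.0%). Without adjustment 742, 296 and 179 genes had a p below 0.05. DESeq2 called 12 genes at day 3 (4 higher and 8 lower, among 3569 genes given an adjusted p), 0 at day 7 and 0 by label. The fit has 2 residual degrees of freedom, which hold the difference of the label effect between treatments. A label effect that differed by treatment thus counted as error, and 0 calls do not show that nothing changed.

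Mctp1, a calcium-binding membrane protein, was nearest to the threshold. Its level was 88.0 and 60.0 CPM in vehicle, 461 and 347 at day 3, and 105 and 157 at day 7. Both day 3 libraries were above all others, in reference cells too, at 408 and 330.2 CPM. Its day 3 difference was 2.42 on the log2 scale, SE 0.27, edgeR adjusted p = 0.0532, and DESeq2 gave an adjusted p of 3.34e-09. Over the alternatives the edgeR adjusted p ran from 2.41e-20 without the filter on low counts to 1.0 without the day 3 Cre-negative library, and it was 0.251 with the lymphatic genes Lyve1, Mmrn1 and Reln at 0.

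C1qtnf9, a secreted relative of adiponectin, stood at 54.9 and 74.5 CPM in vehicle, 17.7 and 17.9 at day 3, and 23.4 and 37.0 at day 7, with no overlap between vehicle and the rest. Its day 3 difference was -1.85 on the log2 scale, SE 0.25, edgeR adjusted p = 0.125, while the reference cells stood at 67.7 to 129.6 CPM with no such order. Nts (neurotensin), also a gene of lymphatic endothelium, was at 7.57 and 0 CPM in vehicle, 109 and 74.4 at day 3, and 0 and 14.6 at day 7 (edgeR adjusted p = 0.194). Ms4a6d, best known from myeloid cells, had 17.0 and 7.27 CPM in vehicle, 67.7 and 65.5 at day 3, and 7.81 and 17.5 at day 7 (edgeR adjusted p = 0.194), close to its reference in each library. Ccl5, a chemokine of lymphocytes, was at 0 and 0 CPM in vehicle, 45.8 and 94.3 at day 3, and 0 and 39.0 at day 7. At least 10 UMIs of Ccl4 and Ccl5 together were found in 1 cell of the day 3 Cre-negative, 8 of the day 3 Cre-positive and 3 of the day 7 Cre-positive library.

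Among lists of at least 10 tested genes, the immediate-early and arterial medians stood furthest from that of all genes, 0.00, at day 3. No member of either list passed. Other lists also exceeded the share of all genes at an unadjusted edgeR p under 0.05, which was 7.89%. Among them were adhesion and inflammation, with 7 of 16 genes (median -0.34), and tip cells, with 6 of 17 (median -0.11). Of 3 Y-linked genes all had lower estimates, each at an unadjusted edgeR p under 0.05, at day 3 (median -1.26) and at day 7 (median -1.77), and their part was not tested. Of 15 immediate-early genes all had lower estimates (median -1.23, 13 with an unadjusted edgeR p under 0.05, beside 7.89% of all genes). Fos stood at 729 and 1226 CPM in vehicle, 220.4 and 501 at day 3, and 942 and 453 at day 7. Jun had 1119.6 and 1448 CPM in vehicle, 873 and 728 at day 3, and 1178 and 794 at day 7. Both day 3 libraries were below both vehicle libraries for either gene, in the reference cells as well. Of 10 arterial genes all had higher estimates at day 3 (median 0.88, 6 with an unadjusted edgeR p under 0.05), and 1 higher and 9 lower at day 7 (median -0.26). Gja4 ran at 50.2 and 21.8 CPM in vehicle, 83.4 and 102 at day 3, and 18.7 and 41.9 at day 7 (day 3 difference 1.22 on the log2 scale, SE 0.35, edgeR adjusted p = 0.473).

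The BMP targets Id1 and Id3, which restrain differentiation, were highest at day 3. Id1 stood at 213 and 312 CPM in vehicle, 519 and 629 at day 3, and 319 and 326 at day 7 (day 3 difference 1.14 on the log2 scale, SE 0.21, edgeR adjusted p = 0.201). Id3 had 415 and 409 CPM in vehicle, 772 and 842 at day 3, and 392 and 483 at day 7 (day 3 difference 0.96 on the log2 scale, SE 0.17, edgeR adjusted p = 0.195). The day 3 values lay above the other 4 for both genes and did not pass.

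The cycle lists themselves had small median changes by treatment, and S phase genes leaned higher at day 3. The S phase sums in cycling cells were 4149 and 3858 CPM at day 3 and 3174 to 3675 CPM in the other libraries. At day 3, 40 of 44 S phase genes had higher estimates (median 0.25), with 5 at an unadjusted edgeR p under 0.05, and 32 of 53 G2/M genes (median 0.05). At day 7 it was 31 of 44 (median 0.13) and 29 of 53 (median 0.01). HEV genes had lower estimates in 8 of 11 cases at day 3 (median -0.24) and higher in 9 of 11 at day 7 (median 0.36). Capillary genes had higher estimates in 5 of 11 cases at either time. At day 3, 5 of 11 capillary and 4 of 11 HEV genes had an unadjusted edgeR p under 0.05, beside 7.89% of all genes. None of these genes passed.

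At day 7 the 5 genes of lowest p were Apold1, an early response gene of endothelium, Phlda1, Hmcn1, Cxcl9 and Bag3, all with lower estimates and edgeR adjusted p-values of 1.0. Apold1 stood at 223 and 287 CPM in vehicle, 85.1 and 101 at day 3, and 109 and 59.4 at day 7. Cxcl9, an interferon-induced chemokine, had 137 and 81.8 CPM in vehicle, 90.0 and 159 at day 3, and 31.2 and 43.8 at day 7. The day 7 values of both lay below both vehicle values.

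By label, the 5 genes of lowest p were Akap12, a kinase scaffold, Oasl1, an interferon-induced gene, Dennd4a, Cebpb and Ccl4, all with higher estimates in Cre-positive libraries and edgeR adjusted p-values of 1.0. Akap12 stood at 25.6 and 74.5 CPM in vehicle, 21 and 42.3 at day 3, and 18.7 and 29.2 at day 7, Cre-negative first, higher with the Cre-positive label in 3 of 3 pairs. Oasl1 had 16.1 and 21.8 CPM in vehicle, 14.6 and 42.5 at day 3, and 9.37 and 19.5 at day 7, also higher in 3 of 3 pairs. Ccl4 reached 253 CPM in the day 7 Cre-positive library and at most 12.2 CPM in the others.

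No list passed by label in any of its genes. Of 11 p53 targets 9 had higher estimates with the Cre-positive label (median 0.49), 4 at an unadjusted edgeR p under 0.05, beside 1.9% of all genes. Bax, which promotes cell death, stood at 137 and 194 CPM in vehicle, 164 and 205 at day 3, and 123 and 203 at day 7 (difference by label 0.49 on the log2 scale, SE 0.16, edgeR adjusted p = 1.0). Cdkn1a had 69.1 and 167 CPM in vehicle, 114 and 151 at day 3, and 198 and 122 at day 7, without a common direction. Of 20 interferon-stimulated genes 18 had higher estimates (median 0.18, beside -0.0035 for all genes). At an unadjusted edgeR p under 0.05 was 1 of the 20. Other lists leaned as well, with higher estimates for 9 of 10 arterial, 13 of 16 angiogenic and BMP and 12 of 15 ribosome biogenesis genes. Lower estimates were found for 40 of 53 G2/M genes (median -0.06) and 12 of 16 genes for chromatin, tubulin and nucleotide supply (median -0.05). Of 20 autophagy genes 8 had higher and 12 lower estimates (median -0.04), and the cargo receptor Sqstm1, which accumulates when autophagy stops, was at 131 and 213 CPM in vehicle, 82.8 and 113 at day 3, and 158 and 118 at day 7, without a common direction.

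**Figure D5:**
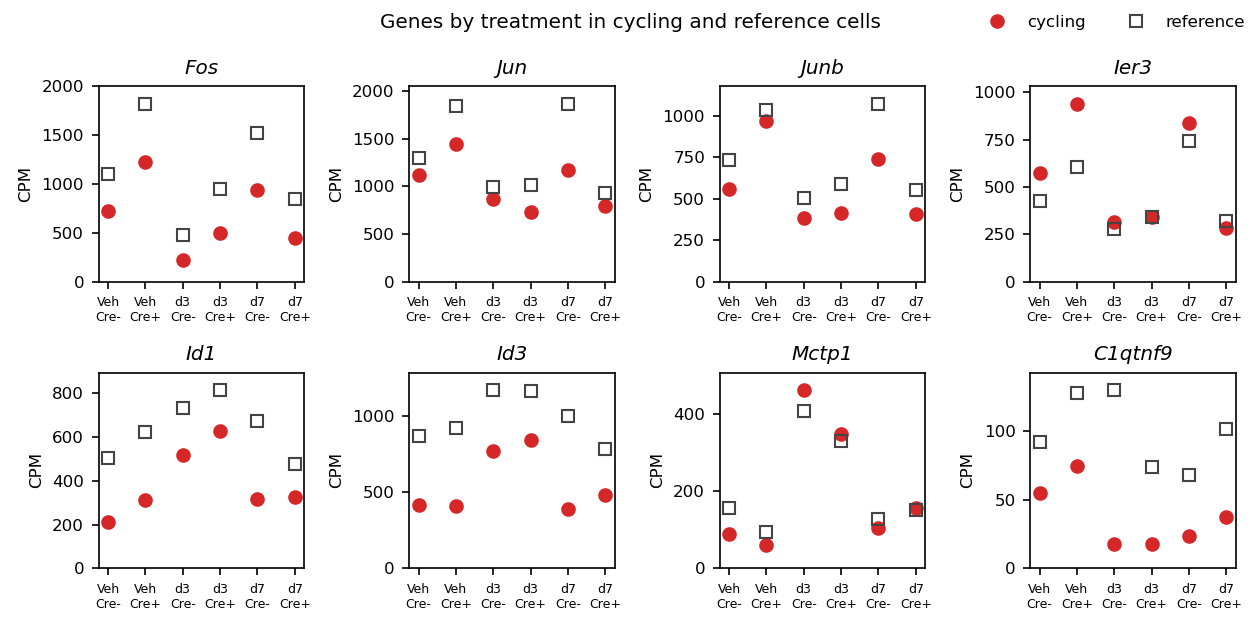
CPM (y axes) of immediate-early genes, Id1, Id3, Mctp1 and C1qtnf9 in cycling cells (filled circles) and reference cells (open squares) of each library (x axes). In cycling cells both day 3 values are below both vehicle values for the 4 immediate-early genes and C1qtnf9, and above them for Id1, Id3 and Mctp1.

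The difference of the treatment response between cycling and reference cells was tested in 1 edgeR fit on the 12 sums, with a term for each library. In it edgeR set the spread of every gene to the trend over genes (infinite prior and 2 residual degrees of freedom). Its p-values thus do not measure each gene's own spread between libraries. Of 14551 genes, 232 passed an adjusted p of 0.05 (1.59%) and 1085 had an unadjusted p below 0.05. DESeq2 called 23, among 7780 genes given an adjusted p. The count fell to 69 without the day 3 Cre-positive and 118 without the day 3 Cre-negative library. Among the 8 genes of lowest p, the cycle genes Ccnb2, Pclaf, Birc5 and Cenpf had higher reference counts at day 3. Ccnb2 (cyclin B2) stood at 137 to 174 CPM in cycling cells and at 1.93 and 0.615 CPM in vehicle, 6.50 and 9.11 at day 3, and 1.43 and 1.95 at day 7 in the reference. The reference cells were chosen for 0 UMIs of Top2a and Mki67, so these genes are tied to the rule. The other 4 were Ccl5, Ccl4, Prss34 and Mcpt8. Nearly all UMIs of the basophil proteases Prss34 and Mcpt8 were in 1 cell of the vehicle Cre-negative, 2 of the day 3 Cre-positive and 2 of the day 7 Cre-positive library.

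The call was lost without the day 7 Cre-positive library for Ccl4 (edgeR adjusted p = 1.0), Mcpt8 (0.791) and Prss34 (0.220), and without the day 3 Cre-positive library for Cenpf (0.0844). With Scrublet's highest scores removed, the call of Ccl4 was lost too (edgeR adjusted p = 1.0). DESeq2 did not call Pclaf (adjusted p = 0.713) or Ccl5, Ccl4, Birc5, Mcpt8 and Prss34 (each 1.0).

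Among the genes described above, and picked here after their values were seen, C1qtnf9 passed (edgeR adjusted p = 1.68e-08), its log2 ratio to the reference differing from vehicle by -1.68 at day 3 and -0.78 at day 7. For Apold1 the differences were -0.52 and -1.48 (edgeR adjusted p = 3.42e-09), and for Cxcl12 they were 0.68 and -0.38 (edgeR adjusted p = 4.54e-08). For Fabp4 they were -0.03 and 0.94 (edgeR adjusted p = 4.65e-10). DESeq2 also called C1qtnf9 (adjusted p = 0.0162) and Apold1 (0.00267), and did not call Cxcl12 (1.0) or Fabp4 (0.287). Other named genes passed outside the cycle genes, the genes described as furthest above the reference and the markers of other cell types. They were Cd36, Apln, Cxcl9, Bag3, Col8a1, Selp, Phlda1, Oasl1, Timp4, Mctp1, Cebpb, Id1, Fut7, Gja4 and Id3. Their edgeR adjusted p-values ran from 1.37e-05 (Cd36) to 0.0277 (Id3). Among these genes DESeq2 called Col8a1 (adjusted p = 0.0493) and none of the others, for which its adjusted p ran from 0.331 (Apln) to 1.0. The test called 17 of 53 G2/M and 3 of 44 S phase genes, from which nothing is read, since the reference cells were chosen for 0 UMIs of Top2a and Mki67. Of the other lists it called 5 of 12 arterial, 3 of 12 capillary, 4 of 12 venous, 3 of 12 HEV, 7 of 17 adhesion and inflammation, 0 of 16 ribosome biogenesis and 0 of 20 autophagy genes, beside 1.59% of all genes. It also called 3 of 18 angiogenic and BMP, 3 of 20 interferon, 2 of 18 tip, 2 of 14 p53, 2 of 16 immediate-early and 1 of 15 pan-endothelial genes. For Notch it was 0 of 10, for glycolysis 0 of 18 and for endoplasmic reticulum stress 0 of 16. All these list counts are those of the edgeR test alone, whose p-values here do not measure each gene's own spread between libraries. They were not made with DESeq2, which called 23 genes in all. Of the markers of other cell types the edgeR test called 5 of 9 fibroblast, 3 of 9 pericyte, 2 of 11 lymphatic and 1 of 7 B cell genes. It also called 1 of 6 myeloid and 0 of 7 T cell genes, and the part of these markers in the response was not tested.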

How the data were processed

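Single-cell 3' libraries of lymph nodes were deposited as raw UMI counts per gene and barcode, with barcodes unfiltered. The authors made these counts with Cell Ranger 7.0.1 on mm10 per the submitters' processing notes, whereas the file headers name Cell Ranger 4. The labels' protocols name V2 barcoding chemistry and an aim of 10000 cells a library. The annotation behind the counts is not given in the sources used here. Cells of at least 1000 UMIs and 500 genes were kept when mitochondrial UMIs made up 10% or less, and a row named mRFP, listed in 4 of the 6 libraries, was left out of the sums. The 6 CD45-positive libraries were not used here. Doublets were not removed in the main analysis. Scrublet (in scanpy 1.11.5) scores were used to mark the highest 0.8% per 1000 cells in an alternative.

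UMIs were summed per library over cycling and over reference cells, since cells are not replicates. Sums were tested with edgeR 4.0.16 (TMM, quasi-likelihood, treatment plus label, Benjamini-Hochberg adjustment over all genes tested) and, as an alternative, DESeq2 1.42.0. The test was also run on simulated counts in which every gene had the same spread. That run does not measure the power of the test on these data. Log2 ratios of sums add 0.5 counts. Shares were compared with exact permutation tests. Free RNA was summed over barcodes of fewer than 100 UMIs. Of 32285 gene IDs 32158 matched GENCODE M21, and the promoters came from RefSeq. The counting is not stated to separate close paralogs, so values of Hba-a1, Hba-a2 and Ccl21a are uncertain, and of symbols with several IDs the ID with most UMIs was taken.

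Genes were named by these rules: the 5 of lowest p and at least 20 CPM in each contrast where none passed, the 8 of lowest p in the response, the 12 furthest from the reference in each direction outside the cycle lists, up to 6 of each list by mean CPM, and the rule genes. Ccnb1, Plk1, Cdc20, Aurka, Cenpe, Cenpa, Hmmr, Nuf2, Ckap2l, E2f8, Rrm2, Rad51ap1 and Apln were shown beside them. The members and lists were chosen with earlier results of these data known. Alternatives were a threshold of 1 or 3 UMIs, stricter cell filters, doublet removal, size factors, the gene filter, leaving out each library, and a depth range.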

Additional observations from a re-analysis of the deposited data

Results flagged for a closer look

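With the main threshold, the label difference in the share of cycling cells changed sign between treatments. The Cre-positive minus Cre-negative difference was -1.03 percentage points in vehicle, 2.11 at day 3 and 1.86 at day 7, each from 1 library against 1, and the difference between treatments was not tested. By the 99th percentile measure the day 3 shares were 7.68% Cre-negative and 7.43% Cre-positive, so the sign at day 3 depended on the measure. Resting B cells of the same libraries passed the cycle threshold at 3.13 and 0.327% in vehicle and 1.32 and 2.67% at day 3. At day 7 it was 0.435 and 1.91%, so the order within each pair was the same. As said above, no order is read among the vehicle and day 7 libraries.

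The treatment response differed between cycling and reference cells in 232 of 14551 genes by edgeR's adjusted p. By DESeq2 it differed in 23 of the 7780 genes given an adjusted p. Without the cells that Scrublet scored highest the edgeR count was 158 genes, and with other cell types' markers at 0 it was 189.

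The count tables of 4 libraries list mRFP, which no comparison used. Among cycling cells it was found in 12 of 52 in the vehicle, 110 of 584 in the day 3 and 13 of 92 in the day 7 Cre-positive library. In reference cells of these libraries it was found in 205 of 3724, 377 of 4366 and 158 of 2679. The day 7 Cre-negative library lists mRFP with 0 UMIs, and the other Cre-negative libraries have no such row. The labels do not name this transcript, and cycling cells were 2.17 to 2.51 times deeper in these 3 libraries.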

How the results depend on the processing

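The mean differences in share kept their sign by treatment and by label under every alternative run, while the day 3 pair alone changed order with the 99th percentile measure (7.68% Cre-negative, 7.43% Cre-positive), and no p passed 0.05. Oxazolone minus vehicle ranged from 3.08 points (2000 UMIs) to 7.16 points (cells of 5000 to 20000 UMIs, where the denominator also changes), and from 2.60 to 5.78 points when a library was left out. By label it ranged from 0.161 to 2.23 points, and from 0.413 to 1.98 when a pair was left out. Counts of called genes moved more. Without the filter on low counts, edgeR called 51 genes by label, 210 at day 3 and 40 at day 7, against 0. At day 3 DESeq2 called 12, a threshold of 3 UMIs gave 2, and doublet removal and the pan-endothelial filter gave 1 each, which was Mctp1. With 1 library left out, 1 residual degree of freedom remained, and the counts ranged from 0 to 88 by label (88 without either vehicle library), 0 to 338 at day 3 (338 without the vehicle Cre-negative one, 0 without either day 3 library) and 0 to 75 at day 7 (75 without the vehicle Cre-negative one). Genes of the response ranged from 69 to 330, with 23 by DESeq2. Genes more than 2-fold lower than the reference were 27 of 7313 genes at 5000 to 20000 UMIs (32 on the same 7400 genes) and 235 with lymphatic cells in the reference, against 111. The last alternative tested 7601 instead of 7400 genes, and on the same 7400 genes it gave 124. The causes of the other shifts were not tested. Single genes were recomputed only for those of lowest p, of the response and the 24 furthest from the reference, and of the first and last of these none was reversed, while for the response only the adjusted p was recomputed. Of the 207 values of genes of lowest p, 61 passed the threshold under an alternative, and of the 112 values of response genes 11 did not pass. The filter of 5 pan-endothelial UMIs, the 99th percentile measure, and leaving out libraries for the shares and the profile, were chosen after seeing the data. No fit with a replicate number as a block was made, because the labels carry no such numbers, and the label test of the shares is paired by treatment. The smallest libraries held 52 and 54 cycling cells.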
